A study of Mus musculus with 8 samples.

Results

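Activins and the TGF-beta ligands are secreted growth factors of one superfamily, and the genes described here encode some of them, together with follistatin, Gdf15 and Tsku. The list named 10 genes: the activin beta subunit genes Inhba, Inhbb, Inhbc and Inhbe, the antagonist gene Fst, the ligand genes Tgfb1, Tgfb2, Tgfb3 and Gdf15, and Tsku. They were taken by gene symbol from the platform annotation of the array probes, which gave 8 measured genes of 20289 genes on the arrays. Of these 8, 7 carried the listed symbol itself, and 1, Tsku, was listed under an older clone name, 9530051K01Rik, that the mouse gene table gives as a synonym of Tsku. Inhbb and Gdf15 (2 genes) had no named probe, so neither is analysed here, and nothing below speaks of their levels. Each of the 8 genes was measured by 1 probe.

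An activin is a dimer of beta subunits; Inhba encodes the subunit of activin A, and Inhbc and Inhbe encode the subunits of activin C and activin E, which are made mainly by hepatocytes. Activins and TGF-beta bind pairs of type II and type I receptor kinases that phosphorylate the transcription factors SMAD2 and SMAD3, and follistatin binds activin and keeps it from its receptors. TGF-beta is secreted in a latent complex and in liver it is known for growth arrest of hepatocytes and for activating matrix-producing stellate cells.

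The arrays held total RNA of primary hepatocytes from male C57Bl/6 mice after either normal chow (4 arrays, numbered 1, 2, 3 and 5) or a high fat diet (HFD; 4 arrays, numbered 8, 10, 11 and 12). All cells of both diets were cultured alike: plating was in M199 with 400 nM dexamethasone, 1.5 nM EGF, 100 nM insulin and 10% serum, insulin was lowered to 10 nM at a change of medium after 4 h, and the cells were harvested 24 h after that. The design calls the arrays biological replicates; the age of the mice, the length of the diet and whether 1 array stands for 1 mouse are not stated in the labels, and dish culture with insulin, dexamethasone and EGF limits the cells as a model of liver in place. The series asks how hepatocytes of HFD-fed mice differ from those of chow-fed mice, and RNA was measured, not secreted protein.

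Levels are the deposited log2 values, given as mean ± SD (n = 4 arrays per diet), and a difference is the HFD mean less the chow mean, in log2 units. Adjusted p-values come from limma over all 20289 genes, with 0.05 as the threshold, and a gene is said to have risen or fallen only below it. The median of all probes was 7.51, close to background, and the scale reached 14.91. Chow array 3 was unlike the rest: its correlation with them across probes was 0.946 to 0.952, against 0.989 or more among the other 7. Of 10 hepatocyte markers, 1 rose and 0 fell (median difference 0.0040). The marker that rose was Cps1, the first enzyme of the urea cycle, from 8.40 to 8.91 (0.51, adjusted p = 0.0105). Apoa1 (14.62 in chow and 14.61 in HFD) and Hnf4a (11.22 and 11.17) were high in both diets, the Alb probe read lower (8.37 and 8.17), and the probes of Tat (7.38 and 7.41) and Fgb (7.47 and 7.50) lay at background. In these mixed cultures fewer cells of a type and less RNA per cell cannot be told apart.

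The promoters of Inhba and Inhbe are shown because these 2 genes had arrays that did not overlap between the diets, in opposite directions. Each sequence is the 250 bases before an annotated transcript start, 5′ to 3′ on the gene's strand, from RefSeq on build GRCm38.p6. The Inhba window is chr13:16011601-16011850 (plus strand), inside the span annotated for the gene, whose annotated start lies further upstream. The Inhbe window is chr10:127351849-127352098 (minus strand). Capitals mark a match to TGATGNAA, the core of the element bound by C/EBP and ATF factors in amino acid and stress response genes, to TGANTCA, the AP-1 element, or to TGACGTCA, the cyclic AMP response element, each sought on both strands.
Inhba: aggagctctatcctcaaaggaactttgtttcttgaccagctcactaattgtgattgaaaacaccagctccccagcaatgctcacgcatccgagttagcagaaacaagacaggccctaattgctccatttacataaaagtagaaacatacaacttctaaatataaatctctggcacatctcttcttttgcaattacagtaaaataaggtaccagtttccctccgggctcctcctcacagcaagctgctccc
Inhbe: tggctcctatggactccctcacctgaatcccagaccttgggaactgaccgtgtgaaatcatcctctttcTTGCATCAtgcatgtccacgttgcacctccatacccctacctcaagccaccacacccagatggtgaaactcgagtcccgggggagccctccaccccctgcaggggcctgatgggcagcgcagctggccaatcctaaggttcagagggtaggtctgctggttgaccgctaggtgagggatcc

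The Inhbe window held 1 match to TGATGNAA, TTGCATCA on the printed strand, starting 181 bases before the transcript start. Of 32851 promoter windows of the same length in the mouse table, 3.45% held such a match. The Inhba window held 0 matches to it. Neither window held TGANTCA (in 6.75% of windows) or TGACGTCA (in 1.55%). The SMAD box CAGAC, also sought on both strands, matched 2 times in the Inhbe window and 0 times in the Inhba window, and occurred in 42.2% of all windows. The 2 matches read CAGAC and GTCTG on the printed strand, starting 220 and 31 bases before the transcript start. These matches describe the letters only. Inhbe and Inhbc are neighbours on chromosome 10, with 0 annotated genes between them.

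Of the 8 measured genes, 1 rose in HFD hepatocytes, Inhbe, 0 fell, and 7 did not pass. Over all genes 4.04% passed, 1.47% higher and 2.57% lower in HFD. Adjusted over all 45281 probes, of which 2.09% passed, 1 of the 8 member probes passed, again that of Inhbe. The median difference of the 8 genes was 0.024, against -0.0046 over all genes. Unadjusted p-values lay under 0.05 for 3 of the 8, Inhba, Inhbe and Tgfb2, against 14.1% of all genes. In 2 of the 8, Inhba and Inhbe, the values of the diets did not overlap, against 10.7% of all genes.

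**Figure D1:**
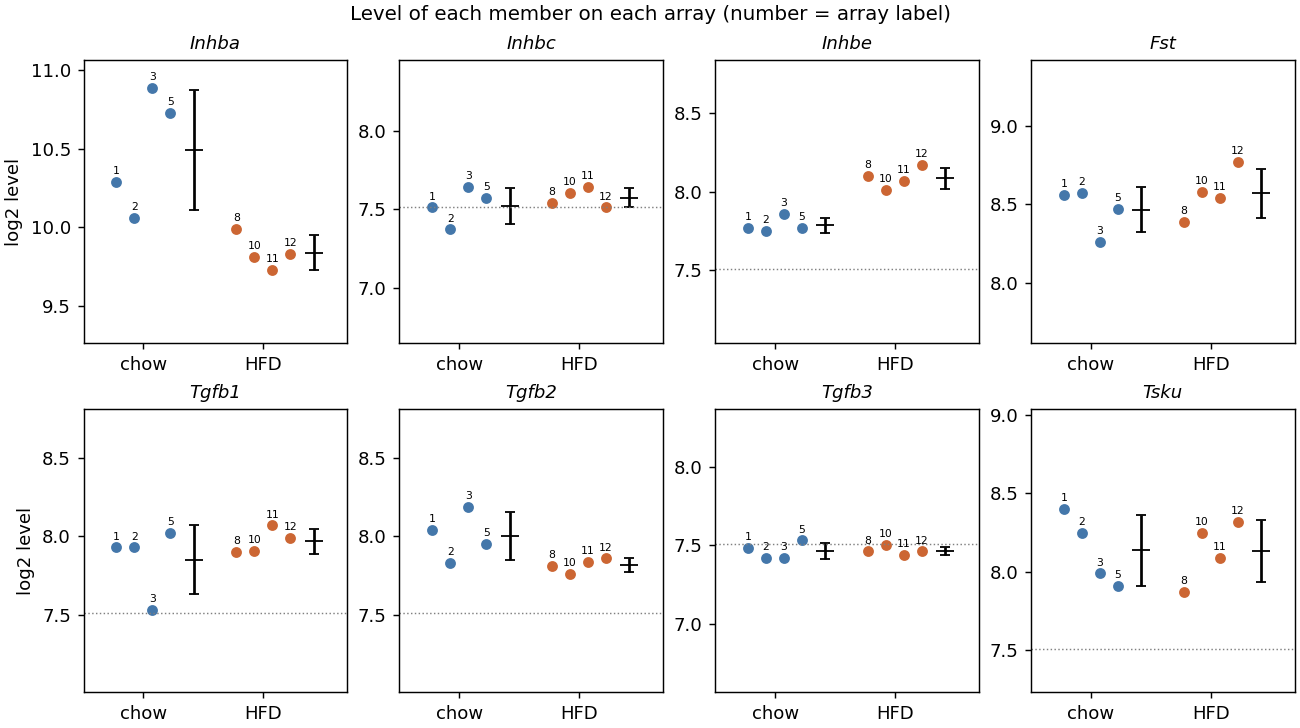
Level of each of the 8 measured genes (log2 units, vertical axes of equal length) on each array, with the array number beside each point, blue for chow and orange for HFD. The black marks are the mean and SD of 4 arrays, and the dotted line is the median of all probes, 7.51; only Inhba and Inhbe have diets that do not overlap.

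Inhbe, which encodes the subunit of the hepatic activin E, read 7.77, 7.75, 7.86 and 7.77 on chow arrays 1, 2, 3 and 5. It read 8.10, 8.01, 8.07 and 8.17 on HFD arrays 8, 10, 11 and 12. Every HFD array was above every chow array, with 0.14 between the nearest pair. The level rose from 7.79 ± 0.05 to 8.09 ± 0.07, that is by 0.30 with an SE of 0.043 (95% confidence interval 0.20 to 0.40; limma, adjusted p = 0.00845). On the linear scale this is 1.23-fold, with an interval of 1.15 to 1.32. The exact permutation test (2-sided, all 70 ways to assign the arrays) gave p = 0.0286, the lowest value possible with 4 and 4 arrays. Any gene whose diets do not overlap receives this value. The probe was brighter than 74.2% of all probes, not far above background, where a difference on the array may understate the change in RNA. Leaving out chow array 3, its highest chow value, gave a difference of 0.32 (95% confidence interval 0.23 to 0.42, adjusted p = 0.00217). Adjusted p-values ran from 0.00217 to 0.0322 over the 8 fits that each left out 1 array.

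Inhba, whose product forms activin A, had the brightest signal relative to all probes among these genes, brighter than 92.3% of them. It read 10.29, 10.06, 10.89 and 10.73 on chow arrays 1, 2, 3 and 5. It read 9.99, 9.81, 9.73 and 9.83 on HFD arrays 8, 10, 11 and 12. All HFD values were below all chow values, but the lowest chow array and the highest HFD array were only 0.06 apart, and the chow arrays were spread widely. The level was 10.49 ± 0.39 in chow and 9.84 ± 0.11 in HFD, a difference of -0.65 (SE 0.176, 95% confidence interval -1.06 to -0.25). Over all genes this did not pass (limma, adjusted p = 0.101). Its p by the exact permutation test was 0.0286, again the smallest possible. It restates the lack of overlap, which 10.7% of all genes shared, and adds no separate support. The estimate corresponds to a level 1.57-fold lower in HFD. The difference was -0.52 without chow array 3 (adjusted p = 0.0585), and without chow array 2, the lowest, it was -0.80 and passed (adjusted p = 0.0388). It also passed with trend and robust settings (adjusted p = 0.0300) and when probes below the upper quartile were dropped (adjusted p = 0.0438), and its adjusted p lay between 0.0300 and 0.253 across the alternatives.

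Some markers of other liver cells moved with diet in the same arrays. The share of all genes that passed, to set beside the counts below, was 4.04%, and 9.17% without chow array 3. Of 16 macrophage markers, 8 fell and 0 rose (median difference -0.68), and their mean level was 8.87 to 8.93 over the chow arrays and 8.02 to 8.32 over the HFD arrays. Among those that fell were Fcer1g (-1.84), Laptm5 (-1.46), Adgre1 (-1.11) and Cd68 (-1.05). The dimmer Adgre1 probes differed by -0.85 and -0.11. The call of C1qb (-0.87) was lost without chow 1, 2 or 5 or HFD 10, 11 or 12. That of Ctss (-0.29) was lost without HFD 8, 11 or 12. Among the markers that did not pass, Marco (-0.47) and Vsig4 (-0.35) were lower, and Clec4f (0.12) was the only one of the 16 with a higher mean in HFD. Adgre1 was near background in HFD (7.63), Cd68 was not (9.43), and 1 of the 16, Cd5l, had a mean level below the median of all probes. Of 10 sinusoidal endothelial markers, 4 fell and 0 rose (median -0.31), with mean levels of 8.04 to 8.28 in chow and 7.71 to 7.78 in HFD. The 4 that fell were Fcgr2b (-1.37), Lyve1 (-0.80), Cdh5 (-0.78) and Stab2 (-0.38), and the calls of Cdh5 and Stab2 were each lost in 6 of the 8 fits that left out 1 array (adjusted p up to 0.125 and 0.0875). Dimmer Fcgr2b probes differed by -0.59 and, near background, by -0.062, 0.017 and 0.021, and the second Cdh5 probe by -0.28. Leaving out chow array 3, 11 macrophage markers fell and 0 rose, and 7 endothelial markers fell and 1, Clec4g (0.33), rose. With all 8 arrays, the 2 Clec4g probes differed by 0.22 and -0.066. Of 11 stellate cell markers 1 fell, Sparc (-0.89), and 6 lay at or below the median of all probes, among them Col1a1, Col3a1 and Lrat (list mean 7.61 to 7.64 in chow and 7.49 to 7.52 in HFD). The dimmer Sparc probes differed by -0.35 and -0.27. Of 6 bile duct markers, 2 passed, both higher in HFD: Tspan8 (0.27) and Cldn4 (0.58), with a list mean of 8.62 to 8.79 in chow and 8.78 to 8.83 in HFD. Without passing, Krt19 (0.11) and Krt7 (0.046) were higher in HFD and Sox9 (-0.23) and Epcam (-0.0073) lower. The list mean rested on Cldn4 (11.49 in chow) and Sox9 (10.59), and the others, Tspan8 among them (7.51), were near background. Activin A and TGF-beta are also made by macrophages and other non-parenchymal cells, and the part of these cells in the Inhba, Tgfb1 and Tgfb2 values, and in the pathway genes that follow, was not tested.

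Inhbc, the neighbour of Inhbe and the subunit gene of activin C, read 7.51, 7.37, 7.64 and 7.57 on the chow arrays and 7.54, 7.60, 7.64 and 7.51 on the HFD arrays. The diets overlapped fully, and both means, 7.53 ± 0.12 and 7.57 ± 0.06, lay at background. Its difference was 0.046 (95% confidence interval -0.09 to 0.18, adjusted p = 0.842 by limma; exact permutation p = 0.571). At this signal a fall could not be seen and a rise may be understated, so the probe says little of a gene that hepatocytes are known to express. The sign turned without chow array 2 (-0.0052).

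Fst, which encodes the activin antagonist follistatin, read 8.56, 8.57, 8.26 and 8.47 on the chow arrays and 8.39, 8.58, 8.54 and 8.77 on the HFD arrays. The values of the diets overlapped, with the lowest on chow array 3 and the highest on HFD array 12. The means were 8.47 ± 0.14 and 8.57 ± 0.15. Their difference of 0.11 (SE 0.094, 95% confidence interval -0.11 to 0.32) had an adjusted p of 0.741 by limma, and the exact permutation p was 0.400. In linear terms the interval runs from 0.926-fold to 1.25-fold. It was 0.038 without chow array 3.

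Among the 3 TGF-beta ligand genes none passed the threshold by limma; 1 of them had an unadjusted p under 0.05. Tgfb1, the form made by macrophages and many other cells, read 7.93, 7.93, 7.53 and 8.02 on the chow arrays and 7.90, 7.91, 8.07 and 7.99 on the HFD arrays. Apart from the low chow array 3, the values lay between 7.90 and 8.07. Its difference was 0.11 (95% confidence interval -0.13 to 0.35, adjusted p = 0.751), and 0.0060 (95% confidence interval -0.11 to 0.12) without that array.

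Tgfb2 read 8.04, 7.83, 8.19 and 7.95 on the chow arrays and 7.81, 7.76, 7.84 and 7.86 on the HFD arrays. HFD values were mostly below chow values, with HFD arrays 11 and 12 above chow array 2. The means were 8.00 ± 0.16 and 7.82 ± 0.04, a difference of -0.18 (SE 0.073, 95% confidence interval -0.35 to -0.01). The adjusted p was 0.306 by limma and the exact permutation p was 0.0857. Its highest value was on chow array 3, and the difference was -0.12 without it (adjusted p = 0.260).

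Tgfb3 stayed at background, from 7.42 to 7.53 over all 8 arrays, with means of 7.46 ± 0.05 in chow and 7.47 ± 0.03 in HFD. Its difference was 0.0018 (95% confidence interval -0.07 to 0.08, adjusted p = 0.994 by limma), which sets no limit on the RNA of a gene whose probe is not above the median of all probes.

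Tsku, which encodes tsukushi, a secreted leucine-rich repeat protein of the liver that can bind TGF-beta, read 8.40, 8.25, 7.99 and 7.91 on the chow arrays. On the HFD arrays it read 7.87, 8.25, 8.09 and 8.32. The ranges of the diets coincided almost completely. The means were 8.14 ± 0.23 and 8.13 ± 0.20, a difference of -0.0034 (95% confidence interval -0.31 to 0.31, adjusted p = 0.997 by limma). The interval leaves room for a change of up to 1.24-fold in either direction. The match of this probe to Tsku rests on the older clone name alone.

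**Figure D2:**
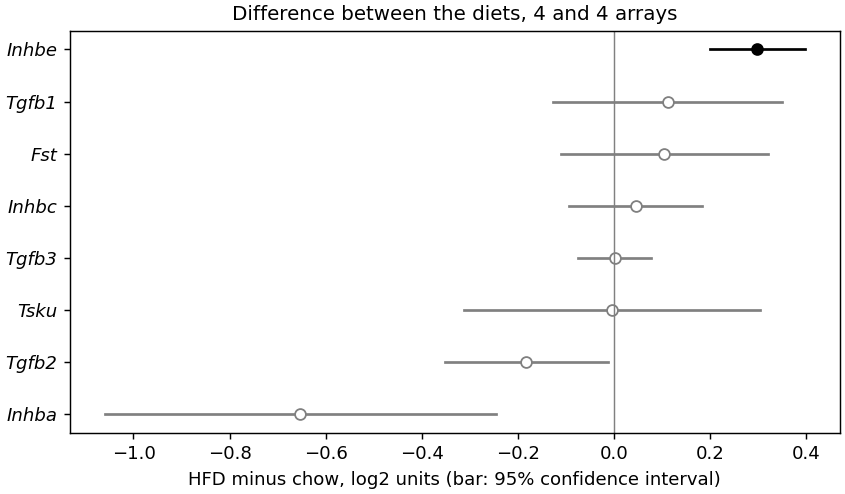
Difference between the diets for the 8 measured genes (horizontal axis, HFD minus chow in log2 units), with bars for the 95% confidence interval; the filled point passed an adjusted p of 0.05. Inhbe at 0.30 is the filled point, Inhba at -0.65 has the widest interval, and the interval of Tgfb2 ends at -0.01.

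Chow array 3 held the highest chow value for 4 of the 8 genes (Inhba, Inhbc, Inhbe and Tgfb2) and the lowest for 3 (Fst, Tgfb1 and Tgfb3). Its distance from the mean of the other chow arrays was 0.53 for Inhba, -0.43 for Tgfb1, -0.27 for Fst and 0.26 for Tgfb2. Without it the chow SD fell from 0.22 to 0.05 for Tgfb1 and from 0.14 to 0.05 for Fst, while that of Inhba was 0.34 against 0.39. Without it 1861 genes (9.17%) passed over all genes, and 1 of the 8, again Inhbe.

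**Figure D3:**
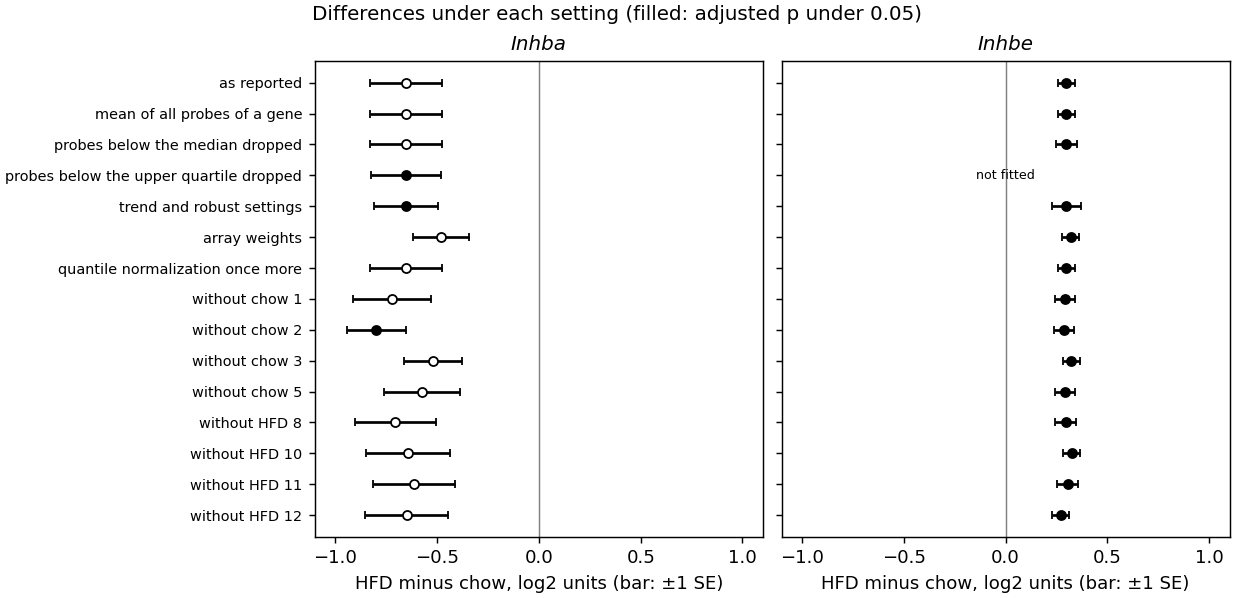
Difference of Inhba and Inhbe (HFD minus chow, log2 units, bars ±1 SE) as reported, under 6 other settings and with each of the 8 arrays left out. Inhbe passed (filled) in each fit that held it and Inhba, between -0.80 and -0.48, passed in 3.

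The other ligand genes of the superfamily, the receptors and the intracellular mediators were read from lists of the pathway. Over all genes 4.04% passed, and 9.17% without chow array 3. The share that passed was 4.17% of other ligands, 6.25% of receptors, 17.6% of extracellular regulators and 5.88% of SMAD genes and regulators. It was 8.70% of SMAD target genes and 15.8% of the stress-response list read last. Of 24 other measured ligand genes, 1 fell and 0 rose, and 18 had a mean level at or below the median of all probes (list median -0.0018, against -0.0046 over all genes). The gene that fell was Bmp4, a bone morphogenetic protein that signals through SMAD1 and its relatives. It read 10.04, 9.94, 10.50 and 9.92 on the chow arrays and 8.57, 8.24, 8.20 and 8.22 on the HFD arrays. The diets were far apart, at 10.10 ± 0.27 and 8.31 ± 0.17, and the level fell by 1.79 (SE 0.142; limma, adjusted p = 0.000593). A second Bmp4 probe lay at background in both diets (7.41 and 7.34). With chow array 3 left out 3 ligand genes fell, with Bmp8b (-0.31) and Gdf9 (-0.18), named after their values were seen, beside Bmp4.

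Of 16 receptor genes, 1 fell and 0 rose (list median -0.0030). Tgfbr1, the type I receptor of TGF-beta, read 11.70, 11.83, 11.92 and 12.03 on the chow arrays and 10.88, 11.20, 11.13 and 11.24 on the HFD arrays. Its level of 11.87 ± 0.14 fell by 0.76 to 11.11 ± 0.16 (SE 0.095; limma, adjusted p = 0.00477). Its 3 dimmer probes differed by -0.23, -0.21 and 0.021 without passing over all probes (limma, adjusted p = 0.529, 0.494 and 0.847). The type II receptor gene Tgfbr2 did not pass (11.81 in chow and 11.62 in HFD, adjusted p = 0.740), nor did the activin receptor genes Acvr2a (7.55 and 7.68) and Acvr2b (8.38 and 8.37), or Acvr1b (7.67 and 7.71) and Acvr1c (7.45 and 7.46), all but Acvr2b near background. The co-receptor gene Eng, an endothelial marker too, fell as the second receptor gene without chow array 3 (-0.52, adjusted p = 0.00134). With array weights 2 receptor genes passed as well, and 2 without chow array 5.

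Of 17 extracellular regulators, 2 fell and 1 rose (list median -0.010). Itgb6, an integrin subunit that helps release TGF-beta from its latent form, fell from 9.65 ± 0.25 to 8.15 ± 0.16 (-1.505, SE 0.130, adjusted p = 0.000891 by limma), and its other probes differed by -0.998, -0.51 and -0.061. Ltbp3, which encodes a latent TGF-beta binding protein, rose from 7.97 ± 0.10 to 8.74 ± 0.12 (0.76, SE 0.071, adjusted p = 0.00122), while its other probes, at background, differed by 0.088 and 0.013. Bgn, a matrix proteoglycan gene, fell by 0.35 (adjusted p = 0.0383), a call that held without chow 3 or chow 5 and was lost when any of the other 6 was left out (adjusted p up to 0.121). Fstl3, a relative of follistatin, was at background in both diets (7.48 and 7.48). Leaving out chow array 3, 5 fell and 1 rose, with Nrros (-0.23), Thbs1 (-0.23) and Itgav (-0.55) passing in addition.

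Of 17 SMAD genes and their regulators, 1 rose and 0 fell (list median -0.019). Smad3 read 9.24, 9.48, 9.80 and 9.49 on the chow arrays and 10.09, 10.20, 10.47 and 10.33 on the HFD arrays. Its level of 9.501 ± 0.23 rose by 0.77 to 10.27 ± 0.16 (SE 0.124; limma, adjusted p = 0.0132). Its second probe differed by 0.37 without passing over all probes (limma, adjusted p = 0.259). The call was lost without HFD array 12 (adjusted p = 0.0528). Smad2, the other SMAD of this branch, was 8.80 in chow and 8.71 in HFD (adjusted p = 0.729), and the inhibitory Smad7 was at background (7.47 and 7.42). Smad1 (0.19) and Smad5 (0.16), of the BMP branch and named after their values were seen, rose as well without chow array 3. With all 8 arrays, the 5 Smad1 probes differed by -0.035 to 0.28 and the 2 Smad5 probes by -0.12 and 0.29.

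Of 23 target genes of SMAD2 and SMAD3, 1 rose and 1 fell (list median -0.025). The lists overlap: Smad7, Skil, Pmepa1 and Tgif1 are also among the SMAD genes and regulators, and Thbs1 is also among the extracellular regulators. Cdkn2b, a cell cycle inhibitor induced by TGF-beta, rose from 8.47 ± 0.10 to 8.99 ± 0.08 (0.52, SE 0.059, adjusted p = 0.00300 by limma). Zeb2, a transcription factor of epithelial to mesenchymal transition that macrophages also express, fell from 8.24 ± 0.08 to 7.91 ± 0.06 (-0.33, SE 0.047, adjusted p = 0.00794), and its 3 other probes lay at background. Ccn2, a matricellular target gene, was close to the top of the scale in both diets (14.54 and 14.60, adjusted p = 0.893). Fn1, which encodes fibronectin, read 7.58 on chow array 3 and from 12.79 to 13.23 on the other 7. Without that array 2 rose and 2 fell, with Bhlhe40 (0.48) and Thbs1 (-0.23) in addition. With all probes of each gene averaged, 1 target gene passed, higher in HFD.

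**Figure D4:**
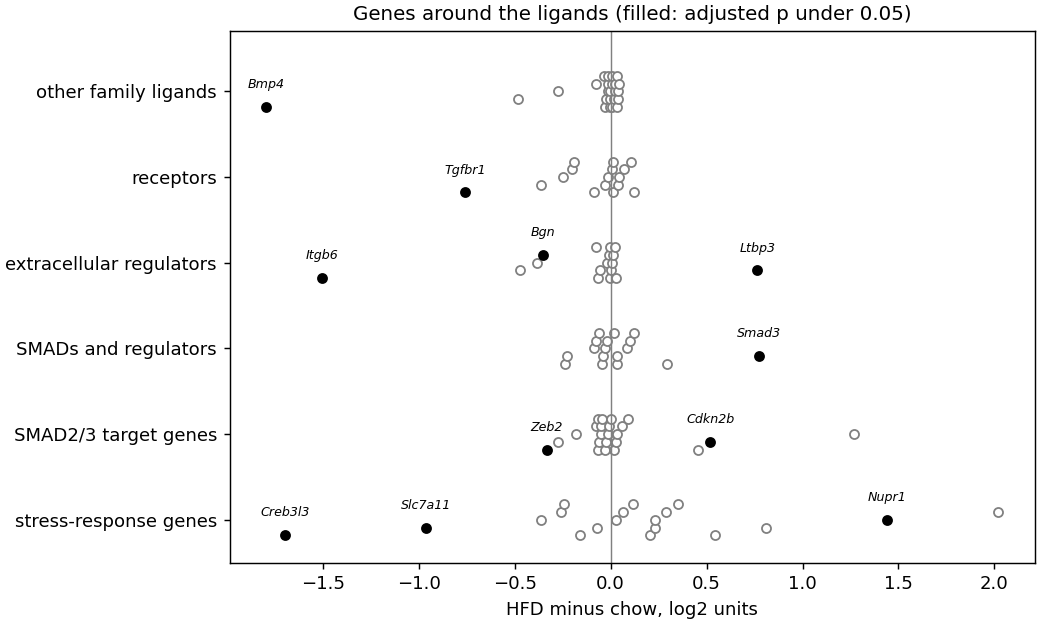
Difference between the diets (horizontal axis, HFD minus chow in log2 units) for each measured gene of the 6 pathway lists, with genes past an adjusted p of 0.05 filled and named. Most points lie near 0, and the filled ones run from Bmp4 at -1.79 to Nupr1 at 1.44.

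Inhbe is known to respond to amino acid and endoplasmic reticulum stress, so a mixed list was read beside it, of genes of that response and of stress-related transcription factors outside it, such as Egr1. Of its 19 measured genes, 1 rose and 2 fell (list median 0.11, against -0.0046 over all genes). The unadjusted p by limma was under 0.05 for 11, against 14.1% of all genes. Of these 11, Creb3l3, Slc7a11 and Vldlr (-0.36) were lower in HFD and the others higher. Nupr1, a stress-induced chromatin regulator, rose from 9.00 ± 0.39 to 10.44 ± 0.08 (1.44, SE 0.175, adjusted p = 0.00424 by limma). Creb3l3, a liver transcription factor held in the endoplasmic reticulum membrane, fell from 10.13 ± 0.35 to 8.43 ± 0.09 (-1.69, SE 0.159, adjusted p = 0.00126), and the cystine transporter gene Slc7a11 fell by 0.96 (adjusted p = 0.000593). A second Slc7a11 probe nearly as bright (10.93 in chow) differed by -0.39, and its 3 dimmer probes by -0.34, -0.17 and -0.049. Atf4 (12.47 in chow and 12.59 in HFD, adjusted p = 0.583) and Ddit3 (10.77 and 10.61, adjusted p = 0.767), central factors of the stress response, did not pass, and their second probes differed by 0.71 and -0.37 without passing over all probes (adjusted p = 0.823 and 0.589). With chow array 3 left out 6 rose and 2 fell: the amino acid synthesis genes Asns (0.25), Psat1 (0.28) and Phgdh (1.19), the stress-responsive Sesn2 (0.27) and the hormone gene Fgf21 (0.26) rose in addition to Nupr1. These 5 genes are named after their values were seen. The same count passed with array weights, but chow array 3 had the lowest weight there (0.192), so that fit adds no separate support.

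Over the 8 arrays, the genes with the pattern most like that of Inhbe, among 5615 genes with a mean level above 8.5, were Plgrkt (Pearson r = 0.992), Extl3 (r = 0.989) and Wdr33 (r = 0.976). They differed between the diets by 0.40, 0.19 and 0.26. The points share arrays and the split between the diets, so these values are a description.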

How the data were processed

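Hepatocyte RNA of 4 chow and 4 HFD samples was measured on Illumina bead arrays. The authors' deposited table holds log2 values for 45281 probes and 8 columns, 1 per sample, with 0 columns left unused. The only tool named, per the submitters' processing notes, is lumi, an Illumina array package; its version, background correction and transformation are not given. Sorted values of the columns differed by at most 0.0026 from their mean, so the columns already shared 1 distribution, which removes any shift of a whole array. That the deposited values are log2 was inferred from their range, and precision is limited by the number of arrays.

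Gene symbols came from the platform annotation, updated through the mouse gene table of GRCm38.p6, used for names and neighbours. Promoter sequences came from RefSeq's table of the same build. 35784 probes had 1 symbol, 0 had several and 9497 had none. The brightest probe by mean level stood for a gene (20289 genes). The diets were compared with limma 3.58.1 (R 4.3.3; lmFit and eBayes, no covariate, 2-sided, Benjamini-Hochberg over all genes), with an exact permutation test over the 70 assignments for single members. The fit was tested on simulated arrays drawn independently, which checks the code and not the calls reported here. Figures were drawn with matplotlib 3.10.9. Motifs were sought with Python 3.11.15.

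The members and lists were chosen with earlier results of these data known, and the lists are described by counts and medians. Named were all members; from each list the genes past the threshold, up to the 4 with the largest difference, or else the 2 smallest p-values; and 3 genes most like the called member. Others named are set beside them as pathway partners or after their values were seen. Alternatives tried were the mean of a gene's probes, 2 filters on dim probes, trend and robust settings, array weights, a second quantile normalization, each array left out, and adjustment over all probes.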

Additional observations from a re-analysis of the deposited data

How the results depend on the processing

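The call of Inhbe (higher in HFD) held in each fit that contained it; its probe and those of Inhbc, Tgfb1, Tgfb2 and Tgfb3 were dropped with probes below the upper quartile, and that of Tgfb3 also with probes below the median, so no value exists there. Adjusted over all probes, 1 member probe passed, as over genes. Inhba (-0.65) passed with probes below the upper quartile dropped, where it was the 1 member called of 3 tested, and with trend and robust settings, where 2 members were called. It also passed without chow 2 (-0.80), again with 2 members called. With each array left out, differences ran from -0.80 to -0.52 for Inhba, 0.27 to 0.33 for Inhbe, -0.0052 to 0.085 for Inhbc, -0.012 to 0.023 for Tgfb3 and -0.081 to 0.085 for Tsku, so the last 3 changed sign, and 1 to 2 members were called; the cause was not tested. The count over all genes (820, 299 higher and 521 lower) was 1603 with array weights (771 higher and 832 lower) and ran from 447 to 1861 with 1 array left out (1861 without chow 3, of which 981 were higher, and 543, 457, 495 and 447 without HFD 8, 10, 11 and 12). With 1 array left out the counts ran from 1 to 3 for other ligands, 1 to 2 for receptors, 2 to 6 for extracellular regulators, 0 to 3 for SMAD genes and regulators (0 without HFD 12), 2 to 4 for SMAD target genes and 3 to 8 for stress genes. With array weights they were 2 for other ligands, 2 for receptors, 5 for extracellular regulators and 8 for stress genes; with the mean of probes 1 SMAD target gene passed. Array weights were lowest for chow 3 (0.192; the others 0.821 to 1.62). No paired analysis was possible because the chow and HFD arrays share no replicate number. Of 106 alternative differences of single members, 95 kept their direction and side of the threshold, 3 newly passed and 8 changed sign; of 113 alternative counts, 92 lay within 1.5 times the reported count and 21 did not. Signals near background limit what Inhbc, Tgfb3 and, in part, Inhbe can show.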
